A study of Mus musculus with 34 samples.

Results

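The transcription factors ZEB1, ZEB2, SNAI1, SNAI2 and TWIST1 drive epithelial-to-mesenchymal transition (EMT), in which epithelial cells give up their cell junctions and take on migratory, mesenchymal properties. OVOL1, OVOL2, GRHL2, ESRP1 and ESRP2 are known as guardians of the epithelial state. Transcripts of these 10 genes, chosen by name, were followed in the 3 NaJa cell lines. All 10 were among the 14107 genes of the deposited count table, none of which the filter on low counts removed.

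The NaJa lines are mouse colorectal cancer cells from C57BL/6N mice. Colon organoids of 1 line were grafted into the colon of syngeneic mice, and NaJa-D, NaJa-F and NaJa-G grew out of the peritoneal lavage of 3 individual recipients, so that each line stands for 1 recipient and the libraries of a line are not separate animals. All libraries, controls included, carry the genotype VillinCreERT2::BrafV600E/+::Trp53R172H::APCdel, in which a tamoxifen-inducible Cre under the intestinal epithelial Villin promoter had recombined the alleles in the organoids. Cells received 0.5 µM encorafenib, an inhibitor selective for mutant BRAF, or the solvent DMSO. RNA was taken at day 1 or day 5, which gave 12 groups of 2 or 3 libraries and 34 libraries in all, 12 from NaJa-D and 11 each from NaJa-F and NaJa-G. Only 2 libraries were held for NaJa-F with encorafenib at day 5 and for NaJa-G with DMSO at day 5. The labels do not say that the libraries of a group came from separate cultures, so the p-values measure the spread between these libraries, which may be technical.

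ZEB and SNAIL proteins are zinc finger repressors that bind the E-box CAGGTG, read as CACCTG on the other strand, in the promoters of epithelial genes such as Cdh1, which encodes E-cadherin. TWIST1 is a basic helix-loop-helix (bHLH) factor that binds E-boxes together with partner proteins. On the guarding side, OVOL1 and OVOL2 are zinc finger repressors of ZEB genes, GRHL2 activates junction genes through the motif ACCGGT, and ESRP1 and ESRP2 are RNA-binding proteins that direct the epithelial splice forms of many transcripts. ZEB1 is known to repress epithelial genes of this group, OVOL2 and GRHL2 are known to repress Zeb1, and many carcinomas sit between both states.

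Library totals ran from 46007050 to 80121299 counts, and the fewest counts for any of the genes in a library were 24 for Ovol2, 26 for Snai1, 34 for Snai2 and 46 for Zeb1. Replicate 3 of the day 1 DMSO group of NaJa-D, as titled, names NaJa-G in its cell line field. By log2 CPM (counts per 1000000, TMM-scaled) it correlated at up to 0.995 with its fellow libraries of that group and at no more than 0.920 with NaJa-G DMSO day 1, and it was kept as titled. The 8 colon epithelium markers summed to 5150 to 9099 CPM in NaJa-D, 4405 to 7381 in NaJa-F and 2574 to 5214 in NaJa-G. Cdx2 and Krt18 had their highest medians in NaJa-F (52.6 and 1413 CPM, against 18.2 and 1144 in NaJa-D), the others in NaJa-D. The leukocyte markers Ptprc, Adgre1, Lyz2, Itgam and Cd3e and the endothelial markers Pecam1, Cdh5 and Tek were not in the table, and the listed markers of these cell types summed to at most 10.2 and 1.96 CPM. Of 5 mesothelium markers Wt1 and Upk1b were not in the table, and Msln, which colorectal cancers also express, made up nearly all of a sum of 497 to 3520 CPM. The 5 measured fibroblast markers of 7 (Lum and Thy1 were not in the table) summed to 2.47 to 8.64 CPM in NaJa-D, 4.65 to 8.05 in NaJa-F and 19.2 to 125 in NaJa-G, where Col1a1 gave 9.92 to 78.4 of it.

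Because the E-box and the GRHL2 motif are where these regulators meet their targets, the 250 bases before the start of 4 genes are shown as RefSeq gives them on GRCm38.p6, 5′ to 3′ on the gene's strand, with the E-box (either orientation) and the motif ACCGGT in capitals. Snai1 is the only gene of the 10 with a window in the table used that holds such a motif, Epcam (an epithelial adhesion molecule) holds both motifs, and Rab25 (a GTPase of apical recycling) and Ap1m2 (an epithelial clathrin adaptor subunit) hold E-boxes only. The stretches lie at chr2:167537945-167538194 on the plus strand for Snai1, chr17:87635729-87635978 on the plus strand for Epcam, chr3:88548280-88548529 on the minus strand for Rab25 and chr9:21312334-21312583 on the minus strand for Ap1m2.
Snai1: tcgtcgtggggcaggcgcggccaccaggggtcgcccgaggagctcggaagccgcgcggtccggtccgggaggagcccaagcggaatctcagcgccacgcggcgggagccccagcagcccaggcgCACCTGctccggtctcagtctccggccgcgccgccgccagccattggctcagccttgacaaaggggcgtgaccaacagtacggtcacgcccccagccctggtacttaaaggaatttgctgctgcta
Epcam: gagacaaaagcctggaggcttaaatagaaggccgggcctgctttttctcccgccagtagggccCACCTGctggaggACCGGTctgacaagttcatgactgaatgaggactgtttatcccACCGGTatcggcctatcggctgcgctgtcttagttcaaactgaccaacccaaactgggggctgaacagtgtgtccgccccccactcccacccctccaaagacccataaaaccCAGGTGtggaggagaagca
Rab25: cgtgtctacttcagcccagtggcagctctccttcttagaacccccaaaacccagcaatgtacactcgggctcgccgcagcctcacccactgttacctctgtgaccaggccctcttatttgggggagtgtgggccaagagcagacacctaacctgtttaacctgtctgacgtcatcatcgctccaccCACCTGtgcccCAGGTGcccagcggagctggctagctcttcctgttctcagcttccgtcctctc
Ap1m2: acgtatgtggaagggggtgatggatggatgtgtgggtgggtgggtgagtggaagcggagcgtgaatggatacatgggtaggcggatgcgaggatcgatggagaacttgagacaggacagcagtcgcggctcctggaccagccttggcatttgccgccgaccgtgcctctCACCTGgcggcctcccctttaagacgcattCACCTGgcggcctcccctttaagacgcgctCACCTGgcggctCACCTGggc

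Over windows of 300 bases (250 before and 50 after the start), searched on both strands, the E-box stood in 13 of the 15 epithelial junction and polarity genes with a window (86.667%), against 6098 of 27025 genes (22.564%). ACCGGT, which reads the same on both strands, stood in 2 of the 15 (13.333%), Epcam and Spint1, against 724 of 27025 genes (2.679%). Of the 10 regulators only Zeb2, Ovol2, Snai1 and Twist1 had a window in that table, and the E-box was in 1 of these 4. In Snai1 the E-box began 126 bases before the start, and in Ap1m2 4 copies began 81, 51, 21 and 9 bases before it. The 27025 genes were all those with a window, whether measured here or not. Since the junction genes were listed by name and not drawn, the difference in shares was not tested. These matches describe letters in a window and not binding, which was not measured.

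In DMSO the 3 lines stood in the order NaJa-D, NaJa-F, NaJa-G from epithelial to mesenchymal for 9 of the 10 genes, all but Twist1, with every step between lines past the threshold, although the first step of Ovol2 was small. In NaJa-G, Zeb1 stood 24.4-fold, Zeb2 8.95-fold, Snai2 6.57-fold, Snai1 4.83-fold and Twist1 1.91-fold above their NaJa-D levels. The guardians went the other way, Ovol1 being 18.6-fold lower, Grhl2 10.8-fold, Esrp1 9.19-fold, Ovol2 5.99-fold and Esrp2 1.96-fold. All 10 genes passed the test (limma-voom, with adjusted p, after Benjamini and Hochberg over all genes, below 0.01) in each of the 3 comparisons between lines, where 61.6% (NaJa-F against NaJa-D), 67.4% (NaJa-G against NaJa-D) and 54.4% (NaJa-G against NaJa-F) of all genes did, so that the number called was less telling than the sizes. The median absolute log2 difference of the 10 genes was 2.94 between NaJa-G and NaJa-D against 0.41 over all genes, 1.38 against 0.26 between NaJa-G and NaJa-F, and 0.89 against 0.32 between NaJa-F and NaJa-D. In such bulk libraries fewer cells in a state and less RNA of a gene per cell cannot be told apart.

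**Figure D1:**
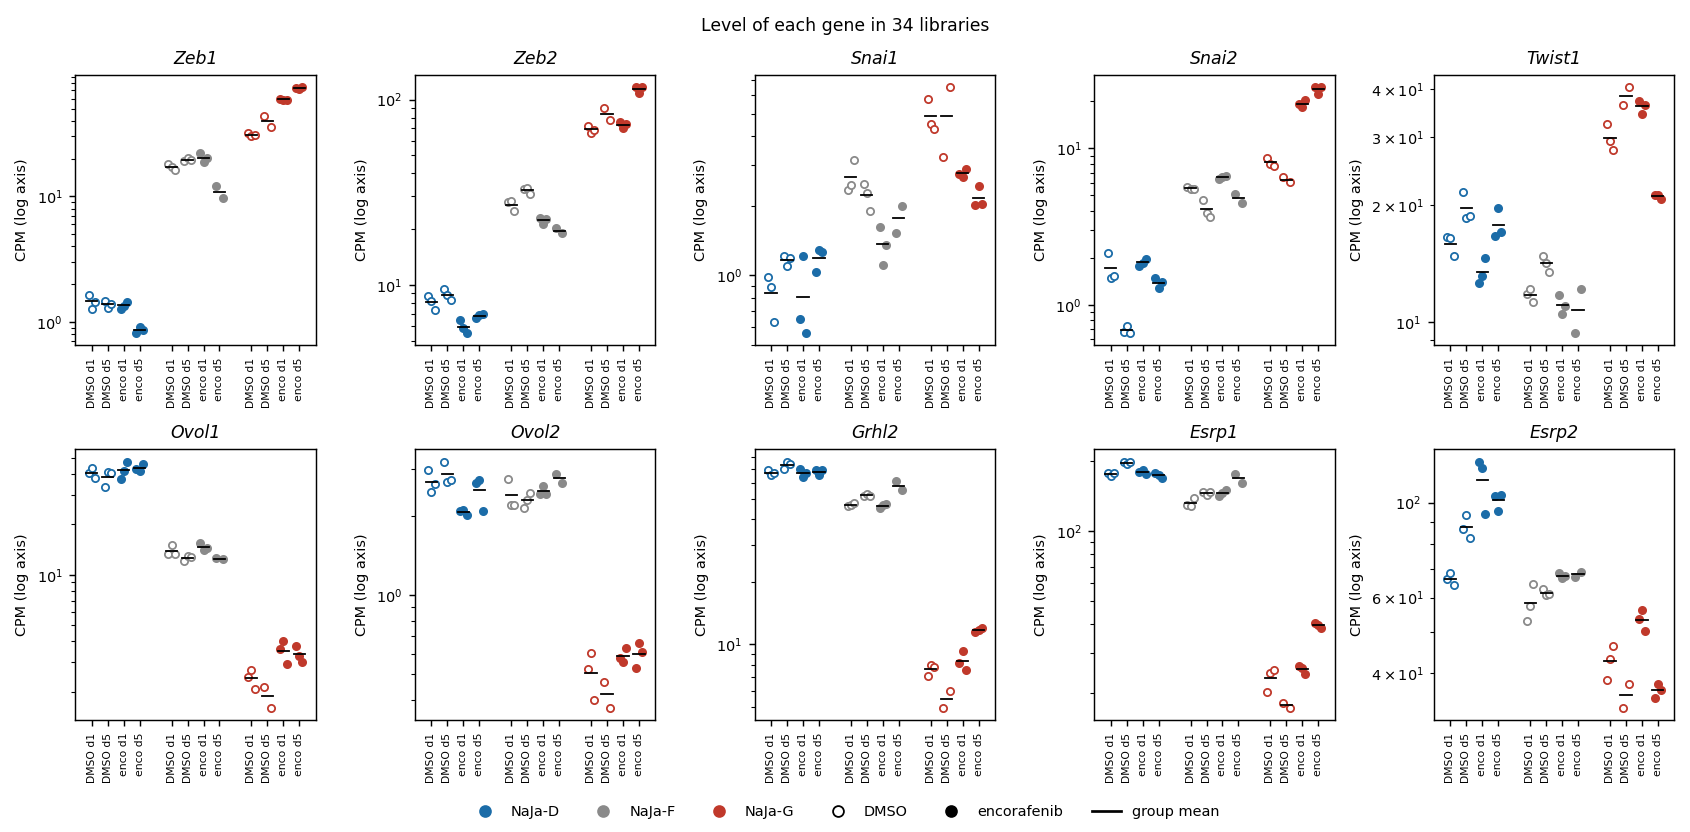
Each panel shows 1 gene, with CPM on a log axis and 1 point for every library, open for DMSO and filled for encorafenib, in blue for NaJa-D, grey for NaJa-F and red for NaJa-G. Black bars are group means. Zeb1 spans from 0.818 CPM in NaJa-D with encorafenib at day 5 to 74.6 CPM in NaJa-G with encorafenib at day 5, and Grhl2 from 4.97 CPM in NaJa-G to 76.0 CPM in NaJa-D.

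Zeb1 (ENSMUSG00000024238, chr18:5591860-5775467 on GRCm38) showed the largest separation of the 5 factors. In DMSO it ran from 1.27 to 1.65 CPM with a median of 1.42 over the 6 NaJa-D libraries and from 16.2 to 20.1 CPM with a median of 18.6 over the 6 NaJa-F libraries, while the 5 NaJa-G libraries held 32, 30.2, 30.8, 43.4 and 35.7 CPM. The ranges of the 3 lines were apart, and NaJa-F lay nearer to NaJa-G than to NaJa-D, with log2 differences of 3.67 ± 0.11 (standard error) to NaJa-D and 0.93 ± 0.05 from NaJa-F to NaJa-G (adjusted p = 9.12e-22 and 3.5e-16). Zeb2 (ENSMUSG00000026872, chr2:44983632-45117395), the second ZEB repressor, ran from 7.33 to 9.46 CPM with a median of 8.53 in NaJa-D and from 25.1 to 33.1 CPM with a median of 29.8 in NaJa-F, against 72.3, 66.2, 68.6, 89.6 and 78 CPM in NaJa-G. Its steps were more even, 1.80 ± 0.06 from NaJa-D to NaJa-F and 1.36 ± 0.04 from there to NaJa-G on the log2 scale (adjusted p = 5.7e-21 and 3.74e-21).

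Snai1 and Snai2 encode the SNAIL repressors Snail and Slug. Snai1 (ENSMUSG00000042821, chr2:167538195-167542814) was low everywhere and ran from 0.631 to 1.21 CPM with a median of 1.04 in NaJa-D, from 1.9 to 3.16 CPM with a median of 2.4 in NaJa-F, and was at 5.8, 4.5, 4.31, 3.26 and 6.53 CPM in NaJa-G. The line ranges did not overlap, with log2 differences of 1.28 ± 0.21 and 0.99 ± 0.15 for the 2 steps (adjusted p = 4.41e-06 and 9.02e-07). Snai2 (ENSMUSG00000022676, chr16:14705852-14709385) ran from 0.66 to 2.14 CPM with a median of 1.11 in NaJa-D and from 3.66 to 5.63 CPM with a median of 5.09 in NaJa-F, against 8.71, 7.93, 7.75, 6.52 and 6.13 CPM in NaJa-G. Like Zeb1 it took most of its rise between NaJa-D and NaJa-F (2.12 ± 0.11, adjusted p = 3.47e-16) and less between NaJa-F and NaJa-G (0.59 ± 0.07, adjusted p = 5.99e-09).

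Twist1 (ENSMUSG00000035799, chr12:33957671-33959829) did not follow this order. It ran from 14.8 to 21.7 CPM with a median of 17.6 in NaJa-D, from 11.3 to 14.8 CPM with a median of 12.8 in NaJa-F, and stood at 32.5, 29.3, 27.8, 36.4 and 40.5 CPM in NaJa-G. NaJa-F was thus the lowest line, 1.38-fold below NaJa-D (adjusted p = 2.5e-07), although these ranges touched, and NaJa-G lay above both without overlap. Per length, in FPKM (CPM divided by the kilobases of annotated exon), Twist1 was still the most abundant of the 5 factors in every line, at 10.9 ± 1.48 (SD, n = 6) in NaJa-D, 7.96 ± 0.871 (n = 6) in NaJa-F and 20.4 ± 3.17 (n = 5) in NaJa-G. The next factor in NaJa-D was Snai1 with 0.618 ± 0.135 FPKM, beside 0.594 ± 0.301 for Snai2, which did not differ beyond their spread. In NaJa-F it was Snai2 with 2.38 ± 0.433, and in NaJa-G Zeb2 with 3.76 ± 0.468, close to Snai2 with 3.67 ± 0.526 and Zeb1 with 3.35 ± 0.532 FPKM.

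Among the guardians Ovol1 (ENSMUSG00000024922, chr19:5549136-5560646) fell furthest. It ran from 33.3 to 43.5 CPM with a median of 40.6 in NaJa-D and from 12.1 to 15.1 CPM with a median of 13.1 in NaJa-F, and the NaJa-G libraries held 2.43, 2.69, 2.08, 2.14 and 1.61 CPM. The ranges of the lines were far apart, with log2 differences of -1.57 ± 0.07 and -2.65 ± 0.13 for the steps (adjusted p = 2.93e-18 and 4.68e-17). Ovol2 (ENSMUSG00000037279, chr2:144305175-144332146), its low-abundance relative, ran from 2.46 to 3.21 CPM with a median of 2.7 in NaJa-D, from 2.13 to 2.76 CPM with a median of 2.24 in NaJa-F, and was at 0.523, 0.603, 0.399, 0.468 and 0.374 CPM in NaJa-G. NaJa-D and NaJa-F overlapped here, and their difference of -0.27 ± 0.09 (adjusted p = 0.00718) was lost in edgeR (adjusted p = 0.017), in DESeq2 (adjusted p = 0.0145), with scaling to library size alone, and without any 1 of 6 libraries (replicate 1 of NaJa-D at day 1 or 5, replicates 2 and 3 of NaJa-F at day 1, and replicates 1 and 2 of NaJa-F at day 5, with log2 differences of -0.27 to -0.22). Its larger step was that from NaJa-F to NaJa-G (-2.32 ± 0.14, adjusted p = 6.65e-15).

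Grhl2 (ENSMUSG00000022286, chr15:37233036-37363569) ran from 65.4 to 76 CPM with a median of 69.6 in NaJa-D and from 46.2 to 52.9 CPM with a median of 49.7 in NaJa-F, while NaJa-G held 7.08, 8.0, 7.83, 4.97 and 5.97 CPM. Most of the drop lay between NaJa-F and NaJa-G (-2.94 ± 0.05, adjusted p = 1.49e-26), with a smaller one between NaJa-D and NaJa-F (-0.50 ± 0.04, adjusted p = 5.28e-13). Esrp1 (ENSMUSG00000040728, chr4:11331933-11386783) had the same shape, from 172 to 200.0 CPM with a median of 186 in NaJa-D, from 128 to 148 CPM with a median of 142 in NaJa-F and 20.3, 24.4, 25.2, 18.2 and 17.4 CPM in NaJa-G, with steps of -0.42 ± 0.04 and -2.78 ± 0.04 (adjusted p = 2.96e-11 and 3.92e-28).

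Esrp2 (ENSMUSG00000084128, chr8:106130319-106136974), which shares targets with ESRP1, varied least of the 5 guardians. It ran from 64.3 to 93.8 CPM with a median of 75.4 in NaJa-D and from 53 to 64.5 CPM with a median of 61.1 in NaJa-F, ranges that touched, and was at 38.6, 43.1, 46.2, 33.2 and 37.8 CPM in NaJa-G. The log2 differences were -0.35 ± 0.06 for the first step and -0.62 ± 0.06 for the second (adjusted p = 5.27e-06 and 8.2e-10). The ZEB and SNAIL genes thus had their larger step between NaJa-D and NaJa-F and all 5 guardians between NaJa-F and NaJa-G, a contrast of step sizes that was not tested. Per length, Esrp1 was the more abundant of the pair in NaJa-D (29.6 ± 1.93 against 17.7 ± 2.84 FPKM) and in NaJa-F (22.1 ± 1.39 against 13.8 ± 0.96), and Esrp2 in NaJa-G (9.17 ± 1.16 against 3.35 ± 0.561). Esrp2 shares 219 exonic bases with Nfatc3 on the other strand, and the sources used here do not say whether counting used the strand, so reads from that overlap cannot be assigned to either gene. Exons on the other strand also overlap those of Zeb1, Zeb2, Ovol1, Ovol2, Grhl2 and Esrp1, with 127 to 690 bases in the longest overlap of each.

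**Figure D2:**
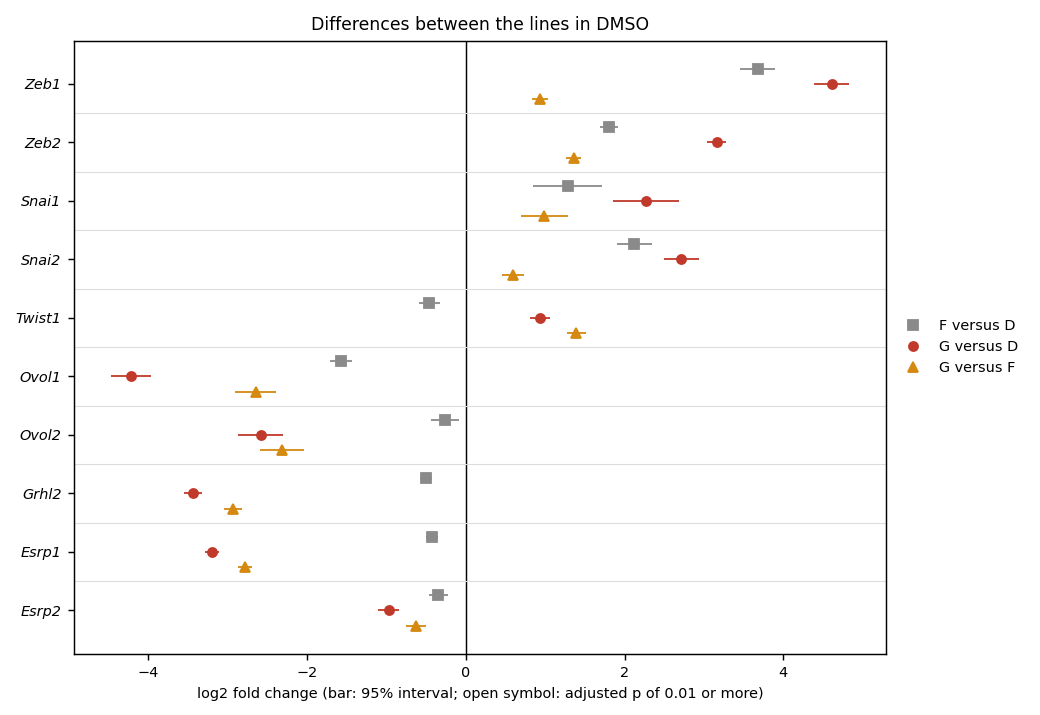
Log2 fold changes between lines in DMSO are drawn for each gene with 95% confidence intervals, as squares for NaJa-F against NaJa-D, circles for NaJa-G against NaJa-D and triangles for NaJa-G against NaJa-F. The difference between NaJa-G and NaJa-D runs from 4.61 for Zeb1 to -4.22 for Ovol1, and between NaJa-F and NaJa-D Twist1 lies on the side of the guardians at -0.46.

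**Figure D3:**
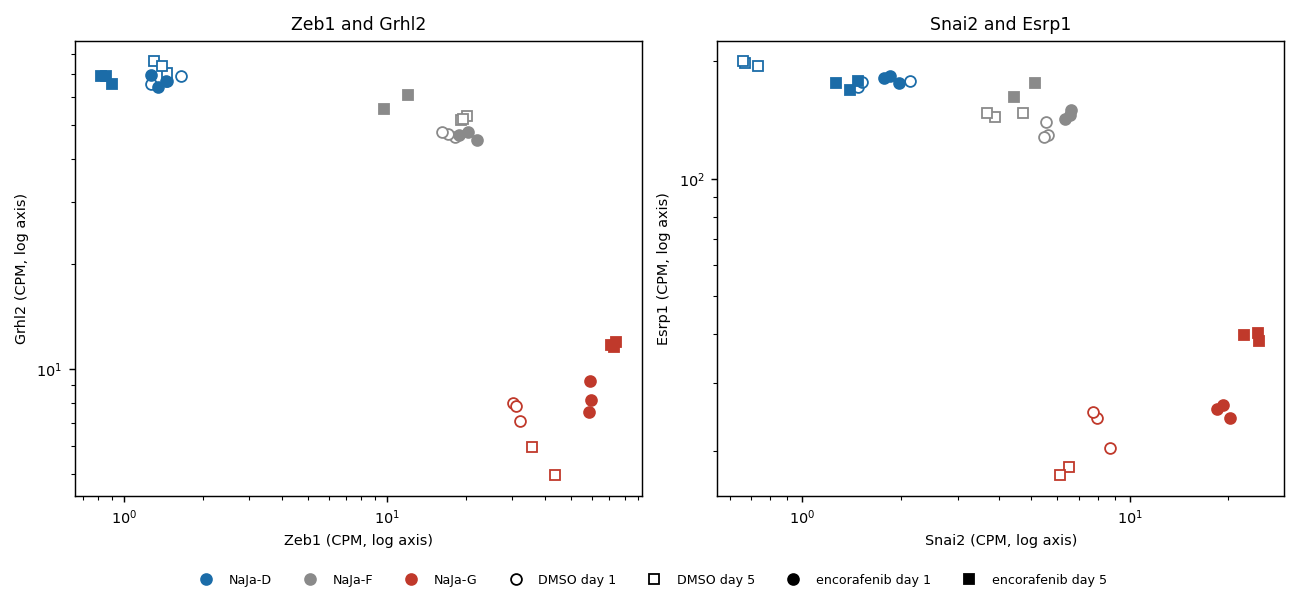
Every library is a point in CPM on log axes, Zeb1 against Grhl2 on the left and Snai2 against Esrp1 on the right, open for DMSO and filled for encorafenib and coloured by line. The lines form separate clouds, and with encorafenib at day 5 the NaJa-G points lie higher on both axes than with DMSO, from 35.7 to 43.4 CPM to 71.3 to 74.6 CPM for Zeb1 and from 4.97 to 5.97 CPM to 11.5 to 11.9 CPM for Grhl2.

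Leaving out the NaJa-D library with the conflicting label kept all 10 calls in NaJa-F against NaJa-D and in NaJa-G against NaJa-D, with log2 differences between NaJa-G and NaJa-D of 4.62 for Zeb1 and -3.43 for Grhl2. With only the day 1 DMSO libraries the calls of Ovol2 and Esrp2 between NaJa-F and NaJa-D were lost, and with only day 5 that of Ovol2.

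By median absolute log2 change encorafenib moved the genes most in NaJa-G, the line in which all genes also moved most. Over all genes this median was 0.31 at day 1 and 0.22 at day 5 in NaJa-D, and 0.21 and 0.17 in NaJa-F. In NaJa-G some factors and some guardians were both higher at day 5. After 5 days, Zeb1 had risen 1.86-fold, Zeb2 1.36-fold and Snai2 3.79-fold, while Grhl2 had risen 2.14-fold, Esrp1 2.22-fold and Ovol1 1.81-fold, and Snai1 and Twist1 had fallen 2.2-fold and 1.82-fold. Thus 8 of 10 genes were called at day 5 (53.2% of all genes) and 6 of 10 at day 1 (64% of all genes). Their median absolute log2 change was 0.88 at day 5 against 0.37 over all genes, and 0.30 against 0.47 at day 1.

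In NaJa-G, Zeb1 went from 32, 30.2 and 30.8 CPM in DMSO to 59.5, 59.1 and 58.8 CPM with encorafenib at day 1, and from 43.4 and 35.7 to 73.1, 71.3 and 74.6 CPM at day 5. The treated libraries lay above all controls on both days, with log2 changes of 0.93 ± 0.06 and 0.89 ± 0.07 (adjusted p = 3.64e-14 and 1.58e-12). Zeb2 had 72.3, 66.2 and 68.6 CPM in DMSO and 75.8, 70 and 73.8 with encorafenib at day 1, where the groups overlapped and no change was called (0.08 ± 0.06, adjusted p = 0.177). At day 5 it stood at 89.6 and 78 in DMSO and 116, 109 and 117 CPM with encorafenib, a rise of 0.45 ± 0.06 on the log2 scale (adjusted p = 4.18e-07).

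Snai2 showed the largest response of the 10 genes. It rose from 8.71, 7.93 and 7.75 to 19.3, 18.5 and 20.3 CPM at day 1 and from 6.52 and 6.13 to 24.6, 22.4 and 24.8 CPM at day 5, with log2 changes of 1.24 ± 0.07 and 1.92 ± 0.08 (adjusted p = 9.46e-16 and 1.34e-17). Snai1, its relative, fell at the same time, from 5.8, 4.5 and 4.31 to 2.74, 2.66 and 2.87 CPM at day 1 (-0.82 ± 0.19, adjusted p = 0.000314). At day 5 it had 3.26 and 6.53 CPM in the DMSO libraries and 2.02, 2.43 and 2.03 with encorafenib (-1.14 ± 0.22, adjusted p = 4.9e-05). These DMSO libraries were far apart, and without replicate 3 of them the fall was no longer called (-0.60, adjusted p = 0.0251).

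Twist1 turned direction in NaJa-G between the days. At day 1 it rose from 32.5, 29.3 and 27.8 to 37.1, 34.5 and 36.4 CPM (0.27 ± 0.07, adjusted p = 0.00153, lost without DMSO replicate 3 at 0.22, adjusted p = 0.0143). At day 5 it fell from 36.4 and 40.5 to 21.2, 21.3 and 20.7 CPM (-0.87 ± 0.08, adjusted p = 3.29e-10). The change at day 5 was lower than that at day 1 by a tested log2 difference of -1.13 ± 0.11 (adjusted p = 1.6e-09).

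Grhl2 in NaJa-G had 7.08, 8.0 and 7.83 CPM in DMSO and 8.16, 9.25 and 7.5 with encorafenib at day 1 (0.14 ± 0.08, adjusted p = 0.123), ranges that overlapped. At day 5 it rose from 4.97 and 5.97 to 11.5, 11.7 and 11.9 CPM (1.10 ± 0.09, adjusted p = 3.97e-11). Even then it stayed below the lowest NaJa-F library, at 45.3 CPM. Esrp1 likewise had 20.3, 24.4 and 25.2 and 26.3, 25.7 and 24.3 CPM at day 1 (0.14 ± 0.06, adjusted p = 0.036) and rose from 18.2 and 17.4 to 40.1, 39.6 and 38.5 CPM at day 5 (1.15 ± 0.07, adjusted p = 1.11e-14). At day 1 without DMSO replicate 3 its change was called (0.19, adjusted p = 0.00705). The responses of both genes were larger at day 5 than at day 1, by 0.96 ± 0.12 for Grhl2 and 1.01 ± 0.09 for Esrp1 (adjusted p = 2.91e-07 and 3.46e-10).

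Ovol1 in NaJa-G rose from 2.43, 2.69 and 2.08 to 3.61, 4.02 and 2.91 CPM at day 1 (0.56 ± 0.18, adjusted p = 0.00733) and from 2.14 and 1.61 to 3.77, 3.29 and 3.01 CPM at day 5 (0.86 ± 0.22, adjusted p = 0.00142). Treated and control libraries did not overlap, yet the day 1 call was lost without replicate 1 or 3 of DMSO or replicate 1 or 2 of encorafenib (0.44 to 0.57) and the day 5 call without DMSO replicate 3 (0.63, adjusted p = 0.0629). Ovol2 changed by 0.20 ± 0.21 and 0.51 ± 0.24 (adjusted p = 0.403 and 0.0669) and was not called, its libraries holding no more than 0.655 CPM. Esrp2 rose from 38.6, 43.1 and 46.2 to 53.4, 56.1 and 50.1 CPM at day 1 (0.33 ± 0.08, adjusted p = 0.000968, lost without DMSO replicate 1 at 0.25, adjusted p = 0.0129) and differed by 0.04 ± 0.10 at day 5 (adjusted p = 0.756).

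In NaJa-F the ZEB genes fell after 5 days. Zeb1 went from 19.1, 20.1 and 19.4 CPM in DMSO to 12 and 9.76 CPM with encorafenib, 1.81-fold lower (-0.85 ± 0.09, adjusted p = 1.05e-08). Zeb2 went from 33.1, 33.1 and 31.1 to 20.3 and 19 CPM, 1.65-fold lower (-0.72 ± 0.07, adjusted p = 8.76e-09). Of the 10 genes 4 were called at day 5 (18.2% of all genes) and 3 at day 1 (29.5% of all genes). The remaining calls at day 5 depended on single libraries. Twist1 was at 14.8, 14.2 and 13.5 CPM in DMSO and 9.36 and 12.2 with encorafenib (-0.40 ± 0.10, adjusted p = 0.00419), and the call was lost without replicate 1 of either treatment (-0.38 and -0.23). Esrp1 was at 147, 144 and 148 and 176 and 162 CPM (0.21 ± 0.06, adjusted p = 0.00758), and this call was lost without any 1 of the 5 libraries (0.14 to 0.25). Where 1 encorafenib library was left, it was assumed to vary like the libraries of the other groups.

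At day 1 in NaJa-F, Zeb1 was still on the other side of its controls, from 18.2, 17 and 16.2 CPM in DMSO to 22, 18.8 and 20.3 CPM with encorafenib (0.25 ± 0.07, adjusted p = 0.00476). This small rise was lost without replicate 2 or 3 of DMSO or replicate 1 or 3 of encorafenib (0.19 to 0.25). The difference between the responses at day 5 and day 1 did pass the test, at -1.10 ± 0.11 for Zeb1 (adjusted p = 2.94e-08) and -0.44 ± 0.10 for Zeb2 (adjusted p = 0.00236, lost without encorafenib day 5 replicate 2 at -0.41, adjusted p = 0.0186). Zeb2 had fallen by day 1 from 27.9, 28.4 and 25.1 to 23, 21.3 and 22.6 CPM (-0.28 ± 0.06, adjusted p = 0.00071). Snai1 fell from 2.33, 2.46 and 3.16 to 1.63, 1.1 and 1.35 CPM at day 1 (-0.98 ± 0.25, adjusted p = 0.00212), a call lost without DMSO replicate 3 or encorafenib replicate 2 (-0.84 and -0.83).

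The remaining values of NaJa-F did not pass the test. Snai2 moved by 0.23 ± 0.09 and 0.23 ± 0.11, Ovol1 by 0.08 ± 0.10 and -0.01 ± 0.12, Ovol2 by 0.07 ± 0.11 and 0.28 ± 0.13, and Grhl2 by -0.01 ± 0.05 and 0.16 ± 0.06 at day 1 and day 5, none of them called. Also not called were Snai1 at day 5 (-0.33 ± 0.28) and, at day 1, Twist1 (-0.09 ± 0.09) and Esrp1 (0.14 ± 0.05, adjusted p = 0.0265, called in DESeq2 at adjusted p = 0.00382). Esrp2 moved by 0.21 ± 0.08 and 0.14 ± 0.09, and without DMSO day 1 replicate 3 its day 1 change was called (0.29, adjusted p = 0.00914).

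NaJa-D, the line with the least ZEB and SNAIL transcript, had 2 of 10 genes called at day 1 (44.9% of all genes). At day 5 it had 3 of 10 called, close to the share over all genes (33%). Zeb2 fell at day 1 from 8.75, 8.21 and 7.33 to 6.47, 5.86 and 5.51 CPM (-0.44 ± 0.10, adjusted p = 0.000679) and at day 5 from 9.46, 8.86 and 8.31 to 6.6, 6.86 and 6.97 CPM (-0.38 ± 0.09, adjusted p = 0.00146, lost without DMSO replicate 1 at -0.33, adjusted p = 0.0157). Esrp2 rose at day 1 from 66.2, 68.3 and 64.3 to 125, 120.4 and 94.1 CPM (0.76 ± 0.08, adjusted p = 9.39e-09). At day 5 its DMSO libraries had themselves reached 86.8, 93.8 and 82.5 CPM, beside 104, 95.7 and 104 with encorafenib (0.21 ± 0.08, adjusted p = 0.0369).

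Snai2 in NaJa-D lay between 0.660 and 2.14 CPM throughout. It had 2.14, 1.48 and 1.53 CPM in DMSO and 1.78, 1.85 and 1.97 with encorafenib at day 1 (0.12 ± 0.16), and 0.671, 0.735 and 0.66 against 1.48, 1.27 and 1.4 CPM at day 5, a rise of 0.99 ± 0.19 (adjusted p = 0.00012). The highest treated library at day 5 was level with the lowest DMSO library of day 1, since the controls themselves had dropped. Zeb1 at day 5 had 1.46, 1.3 and 1.39 CPM in DMSO and 0.818, 0.905 and 0.857 with encorafenib without overlap (-0.68 ± 0.21, adjusted p = 0.0107), which narrowly missed the threshold and passed it in edgeR (adjusted p = 5.68e-05) and DESeq2 (adjusted p = 0.000208). Esrp1 was 198, 194 and 200.0 CPM in DMSO and 178, 176 and 169 with encorafenib at day 5 (-0.18 ± 0.05, adjusted p = 0.00596), lost without any DMSO library or without encorafenib replicate 2 or 3 (-0.19 to -0.16). Grhl2 differed by -0.00 ± 0.05 (95% confidence interval -0.11 to 0.10) at day 1 and -0.11 ± 0.05 (-0.21 to -0.01) at day 5. Ovol1 differed by 0.05 ± 0.08 (-0.12 to 0.22) and 0.19 ± 0.08 (0.02 to 0.35). Ovol2 differed by -0.38 ± 0.13 at day 1 (adjusted p = 0.0133) and -0.20 ± 0.12 at day 5, without a call. Twist1 differed by -0.25 ± 0.09 and -0.14 ± 0.08, and Snai1 by -0.12 ± 0.38 and 0.03 ± 0.31, none of them called. At day 1 Zeb1 (-0.11 ± 0.20) and Esrp1 (0.03 ± 0.05) were not called either.

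Fits that held no libraries beyond the compared pair of groups lost 8 of the encorafenib calls. In NaJa-D these were Zeb2 at day 1 (adjusted p = 0.0111) and Esrp1 at day 5 (0.0152). In NaJa-F they were Zeb1 at day 1 (0.0189) and Twist1 (0.0341) and Esrp1 (0.0167) at day 5. In NaJa-G they were Twist1 (0.0259) and Ovol1 (0.0199) at day 1 and Snai1 (0.0124) at day 5.

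**Figure D4:**
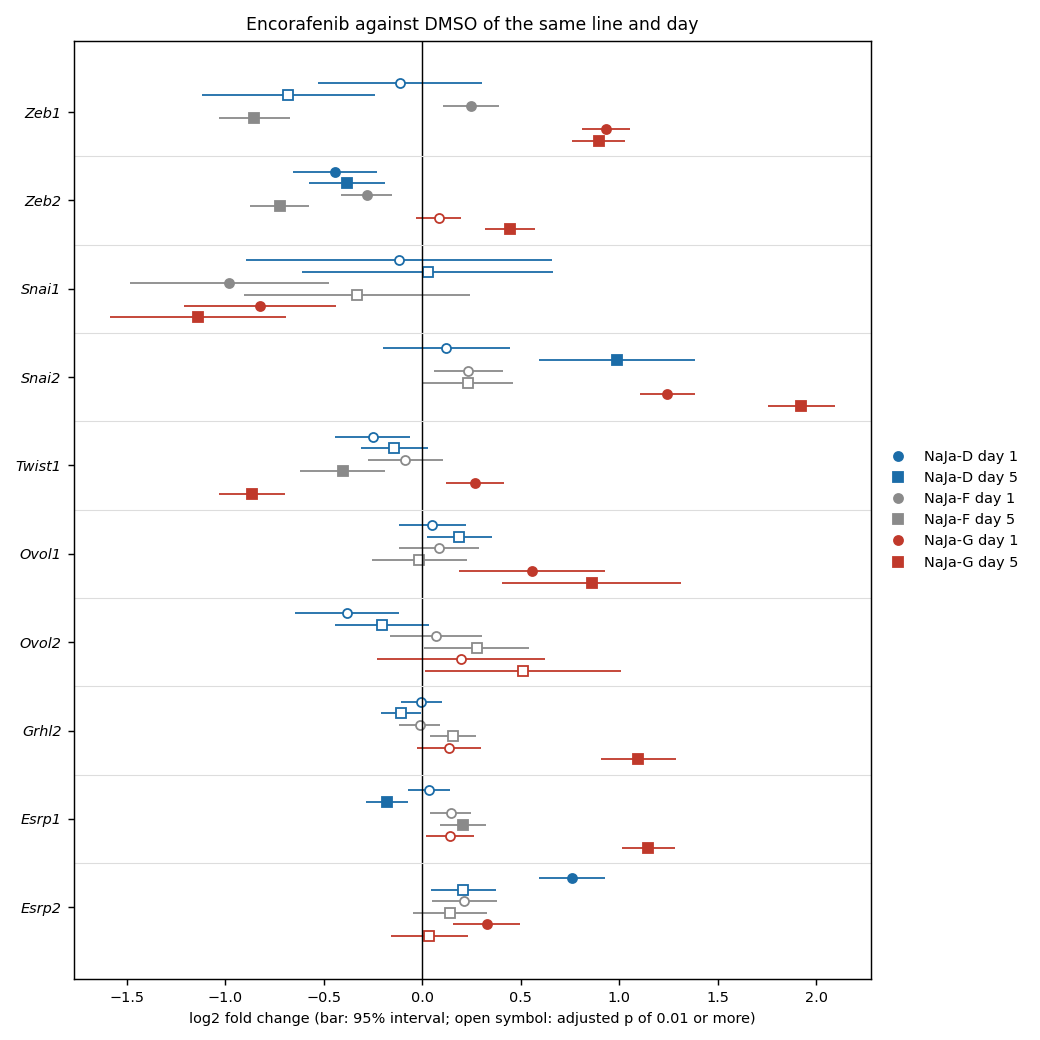
Log2 fold changes of encorafenib against DMSO with 95% confidence intervals are drawn for each gene, circles for day 1 and squares for day 5, coloured by line, with open symbols where the adjusted p was 0.01 or more. Zeb1 at day 5 is at 0.89 in NaJa-G and at -0.85 in NaJa-F, and the Grhl2 and Esrp1 squares of NaJa-G stand at 1.10 and 1.15.

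The difference between lines was tested directly as an interaction. At day 5 the response of NaJa-G exceeded that of NaJa-F by 1.75 ± 0.11 for Zeb1, 1.17 ± 0.10 for Zeb2, 1.69 ± 0.14 for Snai2, 0.94 ± 0.11 for Grhl2 and 0.94 ± 0.09 for Esrp1 on the log2 scale, with adjusted p between 6.27e-13 and 7.43e-08. For Zeb1 and Zeb2 these were responses in opposite directions. In all, 7 of 10 genes passed this test (24.2% of all genes), 6 of 10 between NaJa-G and NaJa-D at day 5 (21.9%), and 1 of 10 between NaJa-F and NaJa-D at day 5 (8.85%). At day 1 the numbers were 3 (33.5%), 5 (36.4%) and 1 (8.79%). Between the days 5 of 10 responses differed in NaJa-G (31.7% of all genes), 2 in NaJa-F (5.88%) and 1 in NaJa-D (7.29%). The interactions of Twist1 and Ovol1 between NaJa-G and NaJa-F at day 5 passed narrowly (adjusted p = 0.00746 for each) and did not hold up to leaving out single libraries. Twist1 was lost without any 1 of 7 of the 10 libraries (-0.47 to -0.27), all but replicate 1 of both NaJa-F groups and of NaJa-G DMSO, and Ovol1 without any 1 of 8 (0.65 to 1.06), all but NaJa-F DMSO replicate 1 and NaJa-G encorafenib replicate 3. Without the library of conflicting label 4 of the 5 calls between NaJa-G and NaJa-D at day 1 remained, that of Esrp2 being lost (-0.36, adjusted p = 0.0172).

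The DMSO controls also drifted between day 1 and day 5. Snai2 was lower at day 5 in all 3 lines, by 2.47-fold in NaJa-D, 1.36-fold in NaJa-F and 1.29-fold in NaJa-G (adjusted p = 5.97e-06, 0.000949 and 0.00138), and the NaJa-G call was lost without DMSO day 1 replicate 1 or day 5 replicate 3 (both -0.32). In NaJa-G, 6 of 10 genes were called (34.1% of all genes), with Zeb1 (0.34), Zeb2 (0.28) and Twist1 (0.36) higher and Grhl2 (-0.47), Esrp1 (-0.38) and Snai2 lower at day 5. Limma fits of only the compared groups lost all 6 of these calls in NaJa-G (Snai2 at adjusted p = 0.0671). In NaJa-F they lost Snai2 (adjusted p = 0.0125) and called Twist1 (0.30) and Grhl2 (0.17) higher. Only 2 DMSO libraries stood for day 5 in NaJa-G. Without replicate 1 the calls of Zeb1 (0.20), Zeb2 (0.18) and Grhl2 (-0.35) were lost, and without replicate 3 that of Twist1 (0.28), the library left being assumed to vary like the others. Beside Snai2, NaJa-D had Esrp2 (0.40) and Twist1 (0.31) called (3 of 10, 29% of all genes), and NaJa-F had Zeb2 (0.26) called (2 of 10, 16.7% of all genes). Twist1 in NaJa-D was lost without any day 1 DMSO library, that of conflicting label included (0.24, adjusted p = 0.0692), or without day 5 replicate 1, and Zeb2 in NaJa-F without day 1 replicate 3 or day 5 replicate 1 or 2 (0.21 to 0.22).

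Junction and mesenchymal genes also differed between the lines in blocks, although their control by these regulators was not measured here. Of 22 epithelial junction and polarity genes, 21 were lower in NaJa-G against NaJa-D (34.1% of all genes were), with a median log2 difference of -3.39 against 0.01 over all genes. The largest differences were those of the claudins Cldn4 (-4.65) and Cldn3 (-4.26) and of the tight junction scaffold Tjp3 (-4.54), and the desmosomal Dsp was the gene that was higher (0.30). Epcam, Rab25 and Ap1m2, whose upstream sequences are shown above, were at -3.78, -3.20 and -3.92. Between NaJa-F and NaJa-D 19 of the 22 were lower (29% of all genes), with a median of -0.90, and Rab25 was not called (0.05).

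With encorafenib the junction genes rose in NaJa-G, 20 of 22 at day 1 (35.3% of all genes rose) and 18 of 22 at day 5 (28.5%), with medians of 0.84 and 1.24 against 0.04 and 0.01 over all genes. At day 5 Mal2 rose by 2.15, Tjp3 by 2.13 and Cgn by 1.92, Rab25 rose by 1.62 and Ap1m2 by 1.35, while Cdh1, Crb3, Dsp and Lsr were not called. Fewer rose in NaJa-F (13 at day 1 and 14 at day 5, against 17.5% and 9.7% of all genes) and in NaJa-D (9 and 5, against 23.7% and 18.3%). Not every change was a rise. At day 1 in NaJa-D, Epcam averaged 1111 CPM in DMSO and 801 CPM with encorafenib. How many of the 22 fell is not reported here.

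Of 18 mesenchymal genes 17 stood higher in NaJa-G against NaJa-D (33.3% of all genes), with a median log2 difference of 3.90. Among those averaging at least 1 log2 CPM over all libraries, the differences were 6.28 for the matrix gene Sparc, 4.50 for the intermediate filament gene Vim, 4.20 for the collagen gene Col1a1 and 2.99 for the receptor gene Axl. Fibronectin (Fn1) was lower (-1.31). In NaJa-F 9 of 18 exceeded their NaJa-D level (32.6% of all genes), Axl by 4.08, and 3 lay below it (29% of all genes). With encorafenib in NaJa-G 11 rose and 2 fell at day 1, and 15 rose and 1 fell at day 5 (35.3% and 28.5% of all genes rose). The median at day 5 was 1.91, with rises of Col1a1 (2.68), Tagln (2.15) and Sparc (2.13). In NaJa-G, therefore, epithelial junction genes and mesenchymal genes rose in the same libraries. The DMSO controls of NaJa-G had meanwhile dropped, with 11 of 18 mesenchymal genes (median -1.18) and 10 of 22 junction genes (median -0.39) lower at day 5 than at day 1 (16.8% of all genes). In NaJa-F 4 of the 18 rose and 3 fell at day 5 (9.7% of all genes rose and 8.5% fell). In NaJa-D 7 rose and 2 fell (18.3% and 14.7% of all genes). Vim fell in both lines (-1.17 and -1.09). The fibroblast markers, 19.2 to 125 CPM in NaJa-G against at most 8.64 CPM in the other lines, moved with the mesenchymal genes. However, Col1a1 and Col1a2 belong to both lists. In NaJa-G they had medians of 64.0 and 18.0 CPM, beside 90.2 CPM for the sum, so the lists did not move independently. The part of fibroblast markers in these results was not tested.

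**Figure D5:**
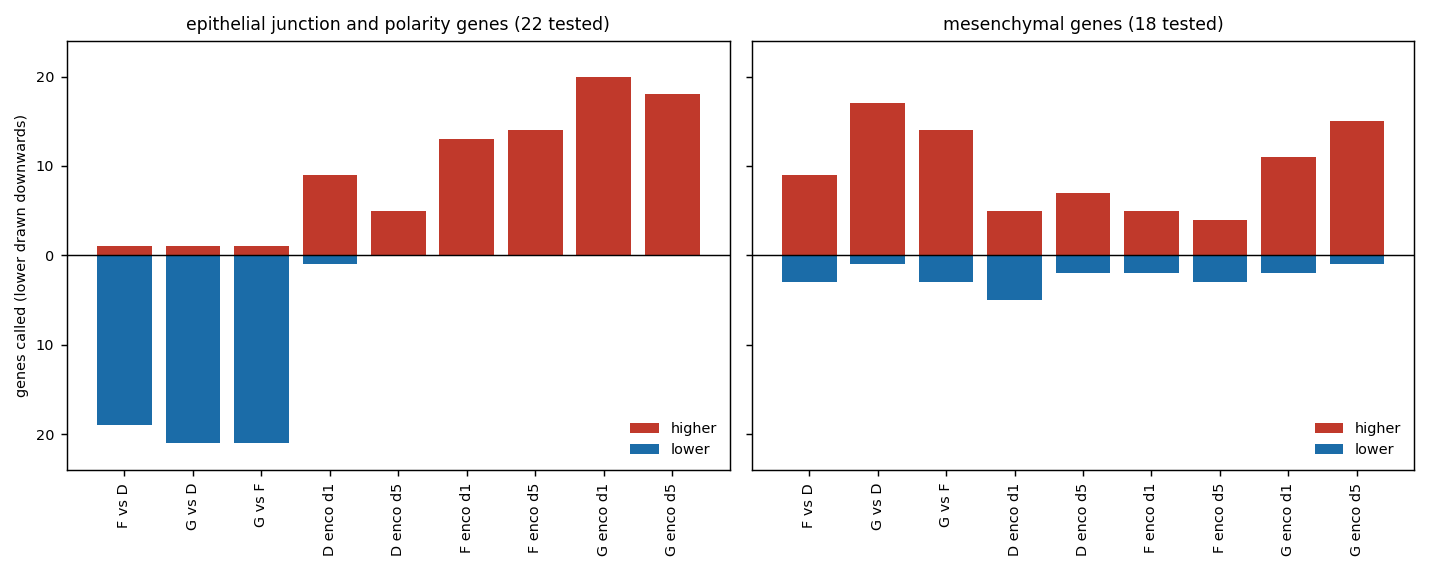
Bars show how many of the 22 epithelial junction and polarity genes and of the 18 mesenchymal genes were called higher or lower in the 3 comparisons of lines in DMSO and the 6 comparisons of encorafenib with DMSO. In NaJa-G against NaJa-D 21 junction genes are lower and 17 mesenchymal genes higher, whereas with encorafenib at day 5 in NaJa-G 18 junction genes and 15 mesenchymal genes are higher.

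Further regulators of the same families did not all follow. Of 11 measured related EMT factors (of 14 listed) 5 were higher and 4 lower when NaJa-G was set against NaJa-D (33.3% and 34.1% of all genes), with Prrx2 at 1.44 and Snai3, the third SNAIL gene, at -2.57. Lef1 and Prrx1, of lower mean abundance, were at 5.49 and 3.87. With encorafenib in NaJa-G 3 of them rose at day 1 (35.3% of all genes), led by Prrx2 (1.10) and Foxq1 (1.01), while at day 5 1 rose and 5 fell (24.7% of all genes fell), Foxq1 among them (-0.77). Of 10 measured epithelial regulators (of 12 listed) 7 were lower and 2 higher in NaJa-G, again set against NaJa-D (34.1% and 33.3% of all genes). Lower were, among others, the ETS factors Elf3 (-2.45) and Ehf (-2.02) and the splicing regulator Rbm47 (-2.20). The higher genes were Foxa2 (4.02), a forkhead factor of low mean abundance with the largest difference of the list, and Klf5 (0.39). At day 1 of encorafenib 8 of the 10 rose in NaJa-G (35.3% of all genes) and Foxa2 fell (-0.61), Ehf rising by 2.14, Elf3 by 1.36 and Grhl3 by 1.08. At day 5 4 were higher and 5 lower (28.5% and 24.7% of all genes), Rbm47 at 1.35 and Grhl3 at -2.02.

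Among 8 measured splicing regulators linked to EMT (of 10 listed), all exceeded their NaJa-D level in NaJa-G (33.3% of all genes), by no more than 0.92 (Mbnl1) on the log2 scale, and 6 did so in NaJa-F (32.6% of all genes). At day 5 of encorafenib in NaJa-G 5 of the 8 fell (24.7% of all genes) and Mbnl2 rose (0.84). A list of 7 genes joined the E proteins, which are partners of TWIST1, with the ID inhibitors, so its counts mix both roles. Of these, 5 were higher in NaJa-G against NaJa-D (33.3% of all genes), the E protein gene Tcf4 by 1.04. The ID gene Id4, of lower mean abundance, averaged 1.46 and 3.03 CPM in NaJa-D DMSO at day 1 and day 5. In NaJa-G DMSO it averaged 3.38 and 6.39 CPM. Of the 7, 4 were lower with encorafenib in NaJa-G at day 5 (24.7% of all genes), Id1 at -1.09. The 12 corepressors that ZEB and SNAIL proteins recruit included 3 higher and 2 lower in NaJa-G against NaJa-D (33.3% and 34.1% of all genes), from -0.64 for Kdm1a to 0.30 for Hdac2. With encorafenib in NaJa-G 6 of the 12 were lower at day 5 (24.7% of all genes), led by Dnmt1 (-0.81), and Ajuba was higher (0.79).

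Over the 12 group means of log2 CPM, the genes most like Grhl2 were Esrp1 (Pearson r = 0.998), Tnk1 (0.998) and Acer2 (0.996), and those most like Esrp1 were Grhl2, the tight junction gene Marveld2 (0.996) and Tnk1 (0.996), out of 10256 genes averaging at least 2 log2 CPM. Ovol2 also had Esrp1 as its nearest gene (0.986). Zeb1 was most like P2ry1 (0.995), Sept7 (0.984) and Rsrc1 (0.984), Zeb2 like P3h1 (0.986), Fgfr1 (0.983) and Rasa3 (0.982), and Snai2 like Ssx2ip (0.987), Map3k3 (0.986) and Fermt2 (0.984). Ovol1 was most like Tmem54, AI661453 and H2-D1 (each 0.992). Snai1 (Smarcd1 at 0.965), Twist1 (Kif7 at 0.953) and Esrp2 (Arrdc1 at 0.971) had less close neighbours. The 12 points share 3 lines, so these values describe mostly how alike the genes were between lines.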

How the data were processed

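RNA-seq libraries of the 3 NaJa lines were analysed from the count table that the authors deposited, with raw counts per Ensembl gene for 34 libraries. Per the labels, the submitters' processing notes name Trimmomatic 0.39, STAR 2.5.2b and the build GRCm38; the counting tool, annotation and use of strand are not given in the sources used here. Reads of both strands may therefore be joined, and the table holds only 14107 genes, with a smallest row sum of 360, so that a gene missing from it was not analysed here. Symbols and positions come from GENCODE M21, which matched 14064 genes. Groups were taken from the titles.

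Counts were scaled by TMM and fitted with voom in limma 3.58.1 (R 4.3.3), 1 mean for each of the 12 groups, over genes with a row sum above 2, after the study's use of limma. There were 21 two-sided contrasts, and p was adjusted over all genes after Benjamini and Hochberg, with values below 0.01 called. CPM values are TMM-scaled; standard errors are those of the fit. Line comparisons averaged the DMSO means of both days. FPKM were CPM divided by exonic length in units of 1000 bases. Replicate pairs differed beyond counting noise (chi-square per gene of 3.32 to 86.6 over 32 pairs). Scripts were tested on simulated data. Alternatives were edgeR 4.0.16, DESeq2 1.42.0, other scalings, filters and thresholds, a replicate block, fits of the compared groups alone and leaving out each library.

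The genes and lists were chosen with earlier results of these data known. The rule named all 10 genes, given in full for the comparisons of lines and of encorafenib with DMSO, up to 4 called list genes with the largest change among those averaging at least 1 log2 CPM, and the 3 genes most like each regulator; some list genes that this rule names are not reported here. List genes named as exceptions to a count or to the abundance limit (Dsp, Fn1, Cdh1, Crb3, Lsr, Lef1, Prrx1, Foxa2, Klf5, Id4, Kdm1a, Hdac2) or beside their upstream sequence were chosen after their values were seen.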

Additional observations from a re-analysis of the deposited data

Results flagged for a closer look

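A total of 31 interactions of the 10 genes passed the test of a difference between responses (limma-voom, adjusted p below 0.01), and each is given as a difference of log2 changes. Over all genes, 5.88% to 36.4% passed, depending on the comparison. Between NaJa-G and NaJa-F at day 1 it was 3 of the 10 genes, against 33.5% of all genes. Contrasts that share a group also share its libraries, so these values are not independent of each other.

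At day 5 the encorafenib response of NaJa-G exceeded that of NaJa-F for Zeb1 by 1.75, Zeb2 by 1.17, Snai2 by 1.69, Ovol1 by 0.873, Grhl2 by 0.941 and Esrp1 by 0.941, and for Twist1 the difference was -0.462. The Ovol1 call was lost without any 1 of 8 of the 10 libraries, and the Twist1 call without any 1 of 7. Against NaJa-D at day 5 the differences of NaJa-G were 1.57 for Zeb1, 0.83 for Zeb2, 0.935 for Snai2, 1.21 for Grhl2, 1.33 for Esrp1 and -0.724 for Twist1. At day 1, NaJa-G exceeded NaJa-F for Zeb1 by 0.683, Zeb2 by 0.366 and Snai2 by 1.01. In the same contrast against NaJa-D it exceeded it for Zeb1 by 1.05, Zeb2 by 0.527, Snai2 by 1.12 and Twist1 by 0.518, with Esrp2 at -0.434, a call lost without any 1 of 6 of the 12 libraries (replicates 1 and 3 of NaJa-D DMSO, replicates 1 and 2 of NaJa-D encorafenib and replicate 3 of both NaJa-G groups, at -0.40 to -0.36).

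NaJa-F and NaJa-D differed in Esrp2 at day 1 (-0.546) and in Esrp1 at day 5 (0.386, lost without NaJa-F encorafenib replicate 1 at 0.33). Between the days, the response at day 5 minus that at day 1 was -0.551 for Esrp2 in NaJa-D, and -1.1 for Zeb1 and -0.442 for Zeb2 in NaJa-F. In NaJa-G it was 0.363 for Zeb2 (lost without DMSO day 5 replicate 3 at 0.26), 0.679 for Snai2, -1.13 for Twist1, 0.961 for Grhl2 and 1.01 for Esrp1. The controls of both days enter these last values, and in NaJa-G Zeb2, Snai2, Twist1, Grhl2 and Esrp1 also differed between the DMSO libraries of day 1 and day 5.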

How the results depend on the processing

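Over 210 values (10 genes in 21 comparisons), calls lost and gained were 2 and 5 in edgeR, 1 and 11 in DESeq2, 2 and 0 with RLE scaling, 5 and 6 with scaling to library size alone, and 0 and 26 at adjusted p below 0.05. With filterByExpr no call changed. No gene had a row sum below 360, so the fit without a filter was the same fit and could not differ. Fits of only the compared groups, which have fewer libraries to estimate the spread, lost 20 and gained 4. The counts of called genes that moved by over 1.5 times were as follows. For the difference of NaJa-F and NaJa-D responses at day 5 (1 in the report) edgeR gave 2, DESeq2 3, adjusted p below 0.05 3 and the replicate block 2. For day 5 minus day 1 in NaJa-D (1) edgeR, DESeq2 and the replicate block each gave 2, and adjusted p below 0.05 gave 3. In DMSO over time, library size alone and adjusted p below 0.05 both gave 5 in NaJa-D and 6 in NaJa-F. Adjusted p below 0.05 also gave 4 for encorafenib in NaJa-D at day 1, 5 at day 5 and 6 in NaJa-F at day 1. With only the compared groups, encorafenib gave 1 in NaJa-D at day 1 and 2 in NaJa-F at day 5. That fit in limma gave 0 for DMSO time in NaJa-G (6 at unadjusted p below 0.05, edgeR 6, DESeq2 7), 0 for NaJa-F minus NaJa-D at day 1 (2 unadjusted, edgeR 1, DESeq2 1) and 0 for day 5 minus day 1 in NaJa-D (4 unadjusted, edgeR 2, DESeq2 2).

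Replicate numbers were not taken as pairs. Of 16 same-numbered pairs of encorafenib and DMSO libraries, 3 had deviations from their group means correlated over 0.1 (-0.157 to 0.215). Differently numbered libraries were not compared, so this check cannot decide whether the samples were paired. The replicate block lost the Twist1 interaction of NaJa-G and NaJa-F at day 5 (adjusted p = 0.0107) and gained 3 calls, among them Zeb1 in NaJa-D at day 5 (adjusted p = 0.00322).

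Leaving out 1 library at a time, the number called ranged from 1 to 3 for encorafenib in NaJa-D at day 5 (1 without DMSO replicate 1), 2 to 3 in NaJa-F at day 5 (2 without replicate 1 of either treatment), 1 to 2 for DMSO time in NaJa-F (1 without day 1 replicate 3 or day 5 replicate 1 or 2), 3 to 6 in NaJa-G (3 without day 5 replicate 1), 0 to 2 for NaJa-F minus NaJa-D at day 5 (0 without encorafenib replicate 1 of NaJa-F, 5 at unadjusted p below 0.05, and 2 without replicate 2), 1 to 2 for day 5 minus day 1 in NaJa-D (2 without encorafenib day 1 replicate 3) and 1 to 2 in NaJa-F (1 without encorafenib day 5 replicate 2). Without DMSO day 5 replicate 1 the Snai1 interactions of NaJa-G at day 5 were called, at -1.63 against NaJa-D and -1.27 against NaJa-F, as was its day 5 minus day 1 difference (-0.78). Calls were also gained without NaJa-D encorafenib day 1 replicate 3 (Twist1 in NaJa-D at day 1 at -0.34, Ovol1 in NaJa-G minus NaJa-D at day 1 at 0.63 and Snai2 in day 5 minus day 1 of NaJa-D at 0.92), without NaJa-G DMSO day 1 replicate 1 (Esrp2 over time in NaJa-G at -0.33 and Twist1 in NaJa-G minus NaJa-F at day 1 at 0.41), without NaJa-F encorafenib day 5 replicate 2 (Grhl2 in NaJa-F minus NaJa-D at 0.33) and without NaJa-D DMSO day 5 replicate 1 (Ovol1 in NaJa-G minus NaJa-D at day 5 at 0.77). The cause of these moves was not tested.

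Signs turned in 62 values of 22 results, none of them called in either fit. Library size alone, which shifts the median of all genes by 0.12 in both comparisons with NaJa-D and by 0.18 in DMSO time in NaJa-D, gave 0.074 for Grhl2 with encorafenib in NaJa-D at day 1, -0.0096 for Esrp2 in NaJa-G at day 5, 0.10 for Zeb1 and 0.087 for Ovol1 in NaJa-D over time, 0.031 for Ovol2 in NaJa-F and 0.027 for Snai1 in NaJa-G over time, -0.068 for Ovol1 in NaJa-F minus NaJa-D at day 1, -0.022 for Esrp1 in NaJa-G minus NaJa-D at day 1, -0.0073 for Zeb2 in day 5 minus day 1 of NaJa-D and 0.022 for Snai2 in that of NaJa-F. Snai1 over time in NaJa-G was 0.011 in edgeR and 0.00076 in DESeq2. Grhl2 in NaJa-F minus NaJa-D at day 1 was 0.0053 in DESeq2, 0.0057 with RLE and 0.019 with only the compared groups. Snai2 in day 5 minus day 1 of NaJa-F was 0.0011 in DESeq2, 0.0032 with RLE and 0.0028 with the replicate block. Esrp1 in NaJa-G minus NaJa-F at day 1 was 0.0016 with RLE and 0.0076 with only the compared groups.

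Over the leave-one-out fits the signs also turned for Zeb1 (-0.17 to 0.015) and Ovol1 (-0.15 to 0.014) in NaJa-D, Ovol2 (-0.11 to 0.054) in NaJa-F and Snai1 (-0.57 to 0.42) in NaJa-G over time in DMSO. They turned with encorafenib for Snai1 (-0.45 to 0.040), Ovol1 (-0.065 to 0.14) and Grhl2 (-0.038 to 0.025) in NaJa-D at day 1, Snai1 (-0.040 to 0.12) in NaJa-D at day 5, Grhl2 (-0.029 to 0.0091) in NaJa-F at day 1 and Esrp2 (-0.056 to 0.13) in NaJa-G at day 5. Among the interactions they turned for Snai2 (-0.044 to 0.22), Ovol1 (-0.052 to 0.15) and Grhl2 (-0.039 to 0.032) in NaJa-F minus NaJa-D and Ovol2 (-0.014 to 0.26) and Esrp1 (-0.10 to 0.051) in NaJa-G minus NaJa-F at day 1, and for day 5 minus day 1 of Snai1 (-0.025 to 0.47) in NaJa-D, Snai2 (-0.11 to 0.10) and Esrp1 (-0.00095 to 0.11) in NaJa-F, and Zeb1 (-0.19 to 0.10) and Snai1 (-0.78 to 0.22) in NaJa-G.

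Depth limited the genes with the fewest counts. Ovol2 in NaJa-G held from 24 counts upward, and its response there at day 5 had a 95% confidence interval of 0.02 to 1.01 on the log2 scale.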

Other observations

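Dnmt1, a DNA methyltransferase that SNAIL proteins are known to recruit, was lower with encorafenib in each of the 6 comparisons. It was picked from the 12 corepressors after its values were seen. How many of all genes were lower in all 6 was not counted, and a link to SNAIL proteins was not tested. At day 1 the log2 changes of Dnmt1 were -0.28 for NaJa-D, -0.37 for NaJa-F and -1.11 for NaJa-G, and at day 5 -0.69, -0.40 and -0.81 in the same order. The adjusted p (limma-voom) lay between 1.56e-19 at day 1 of NaJa-G and 1.12e-06 at day 1 of NaJa-D.

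Vim fell with encorafenib at day 1 by -1.50 for NaJa-D and -0.60 for NaJa-F, and was not called for NaJa-G (-0.06 at day 1 and -0.25 at day 5), the line with the most of it.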
